A study of Homo sapiens with 28 samples.

Results

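HNF4A peaks were compared between GP5d cells that received siRNA against RAD21 (siRAD21) and GP5d cells that received a neutral control siRNA. The members were all rows of the 2 HNF4A peak lists, 7082 under siRAD21 and 11122 under control siRNA, and they made up 18204 of the 393268 peaks in the 22 lists of the series. GP5d is an established line of human colon adenocarcinoma. Both groups carried 50 nM of siRNA for 72 hours before crosslinking, and apart from the siRNA the labels give both the same medium, antibody and host (rabbit). Each group was 1 library. The file headers name merged alignments, and what was merged is not stated.

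HNF4A is a nuclear receptor that binds DNA as a homodimer and keeps up the differentiated state of intestinal and hepatic epithelium, where its known targets include genes of lipid transport and of the brush border. RAD21 is the kleisin subunit of cohesin, the ring complex that holds sister chromatids together and forms chromatin loops. In chromatin immunoprecipitation followed by sequencing (ChIP-seq), a peak is a stretch of genome in which DNA fragments recovered with an antibody pile up above the background, and its summit is the base of highest pile-up. A control peak that shared at least 1 bp with a siRAD21 peak was called kept and the remaining control peaks lost. A siRAD21 peak that shared no base with a control peak was called new. These words describe the lists, since a site below the calling threshold in 1 library can still be bound there.

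With 1 library per siRNA no difference between the siRNAs had a replicate check and none was tested. All intervals are 95% intervals that cover counting error only, and peaks are not replicates. The siRAD21 HNF4A library held 4993835 tags after repeated positions were dropped and the control library 8949817, a ratio of 0.558. The rabbit IgG libraries against which they were called, which record the background without a specific antibody, held 4101535 and 8916252 tags, a ratio of 0.460. Over the 22 lists the ChIP libraries held 1747770 to 19926326 such tags. RAD21 itself had 19752 peaks under siRAD21 and 36204 under control siRNA. The degree of knockdown is not given, since neither RNA nor protein of RAD21 was analysed here. Groups were taken from the titles of the libraries. A separate siRNA tag reads RAD25 for the siRAD21 HNF4A library, which conflicts with its title. The number in that tag rises from library to library over the siRAD21 group. Titles, descriptions and the treatment protocol name RAD21. The antibody number of the H3K4me1 libraries is known for histone H3 in general, and that of the MYC libraries for an antibody raised in mouse although the titles say rabbit, so values for both carry that doubt. The HNF4A motif could not be used to check the label, as no genome of the build of the files (hg18) was used here, and no gene was assigned to a peak.

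Of the 7082 siRAD21 HNF4A peaks, 3352 (47.3%, 46.2 to 48.5) were new and 3730 overlapped a control peak. From the control list, 3713 of 11122 peaks (33.4%, 32.5 to 34.3) were kept and 7409 (66.6%) were lost. Over all 11 targets, 26.9% of the siRAD21 peaks were new and 49.4% of the control peaks were kept, so the HNF4A lists had a higher new share and a lower kept share than the series as a whole. The pooled shares count each peak once, so long lists such as that of H3K4me1 weigh most. Among the single targets HNF4A was not at an end. New shares ran from 11.7% (SMC3) to 86.7% (JUND), with KLF5, NIPBL and RFX2 also above HNF4A. Kept shares ran from 10.2% (KLF5) to 74.3% (H3K4me1), with RFX2, NIPBL, SMC3 and MYC also below HNF4A. The new share of HNF4A stood beside that of MYC (45.1%), and its kept share beside that of JUND (35.1%) and MYC (28.9%). The overlap was rarely marginal. Kept peaks formed 3762 overlapping pairs, of which 3605 matched one to one. Of the 3762 pairs, 8 shared fewer than 100 bp. An HNF4A peak of the other list lay within 1000 bp of 2.54% of new and 2.31% of lost peaks.

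New peaks were small and weak for their list. Their median width was 1176 bp, against 1466 bp for siRAD21 peaks that overlapped a control peak, and they held a median of 15 tags against 24. Their median −10 × log10 p, the significance that the authors' caller gave each peak, was 63.0 against 97.3, and their median fold enrichment over IgG 10.2 against 12.8. An FDR under 5% was reached by 48.6% of the new peaks (46.9 to 50.3) and by 80.1% of the overlapping ones (78.8 to 81.4).

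The control list was divided in the same way. Kept peaks had a median width of 1760 bp and 67 tags, against 1365 bp and 29 tags for lost peaks. Their median −10 × log10 p was 198.9, against 77.3 for lost peaks, and 77.7% (76.3 to 79.0) against 33.2% (32.1 to 34.3) had an FDR under 5%. Although kept control peaks were 33.4% of the list, they held 306470 of its 568883 tags, while the lost peaks held 262413.

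Strong siRAD21 peaks were seldom new and strong control peaks were mostly kept. In the weakest class, −10 × log10 p from 50 to 75, 65.7% of 3550 siRAD21 peaks (64.1 to 67.3) were new and 11.9% of 3955 control peaks (10.9 to 13.0) were kept. From 100 to 150 the shares were 28.3% and 31.4%. From 200 to 300 they were 7.63% and 60.3%, and from 300 to 400 they were 9.20% (5.24 to 14.7) and 76.8%. At 700 and above none of 38 siRAD21 peaks was new, which allows a share of up to 9.25%, and 276 of 281 control peaks (98.2%, 95.9 to 99.4) were kept. The 8 strength classes are drawn in the bar plot of new and kept shares.

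**Figure D1:**
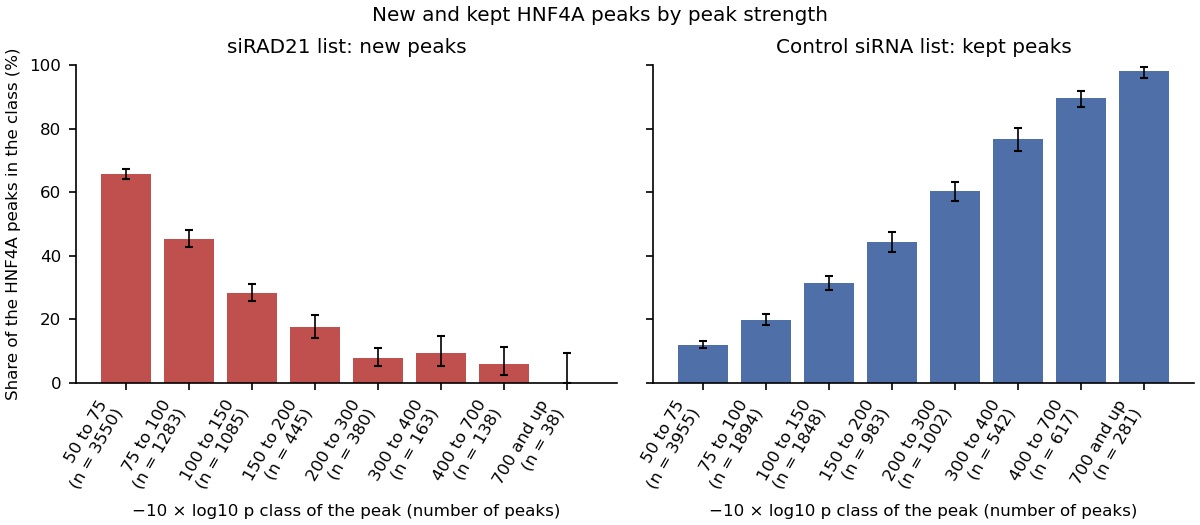
New share of the siRAD21 HNF4A list (left) and kept share of the control siRNA HNF4A list (right) in percent, by class of −10 × log10 p, with the number of peaks per class under each bar; error bars are 95% Clopper-Pearson intervals. The new share is 65.7% in the weakest class and 0 of 38 in the strongest, and the kept share 11.9% and 98.2%.

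Width went with both shares beyond strength. In the narrowest quintile of the siRAD21 list 69.9% of peaks were new, and in the widest quintile 30.4%. In the control list 11.2% of the narrowest quintile and 58.1% of the widest quintile were kept. Compared within 5 strata of p, peaks wider than the median were new less often, with a difference of −7.19 percentage points (−9.66 to −4.72), and kept more often, with 10.1 (8.37 to 11.9). Fold enrichment ordered the peaks less evenly. The kept share was 21.2% in the lowest quintile of fold enrichment, 18.2% in the next and 67.0% in the highest.

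Depth was set beside the losses by scaling each control tag count by 0.558, the ratio of the libraries. The kept share was 4.07% among the 1327 control peaks with under 10 scaled tags and 97.8% among the 228 with 100 or more. Lost peaks had a median of 16.2 scaled tags, and siRAD21 peaks a median of 19 and a minimum of 9. Of the 7409 lost peaks, 1052 had fewer scaled tags than any siRAD21 peak and 2904 (39.2%) had at least as many as the median siRAD21 peak. The part of sequencing depth in the losses was not tested further.

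At kept sites the peaks held fewer tags and were narrower under siRAD21, and most summits stayed within 100 bp. Over the 3605 one-to-one pairs the median was 4.81 RPM (tags scaled to a library of 1000000 filtered tags) under siRAD21 and 7.49 RPM under control siRNA, and the median log2 ratio within pairs was −0.56 (quartiles −0.94 and −0.16). The siRAD21 value was the lower in 2930 pairs (81.3%), a share that was not computed for the other targets. The siRAD21 value was at least 2-fold lower in 799 pairs (22.2%), against 24.3% over the pairs of all 11 targets. It was at least 2-fold higher in 51 (1.41%), against 3.22%. The share of 2-fold lower HNF4A pairs was thus near the pooled share, but that share mixes unlike targets. In it RAD21 (16684 pairs) and SMC3 (10862) had median log2 ratios of −1.02 and −1.40, and H3K4me1 (37761) had 0.02. A pooled share without RAD21 and SMC3 was not computed. The 2 tag counts of a pair had a Pearson correlation of 0.746 on the log2 scale and a Spearman correlation of 0.725 over these pairs, which share the pair of libraries and, in part, their width.

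The peaks of a pair also differed in width. The siRAD21 peak was narrower in 2729 pairs (75.7%), with a median width ratio of 0.821, and 1771 siRAD21 peaks lay wholly inside their control partner, against 349 the other way round. Narrowing was not particular to HNF4A. The median width ratio was lower still for KLF5 (0.587), RFX2 (0.658), RAD21, SMC3, REST, MYC and CTCF (0.785). It was higher for NIPBL (0.874), H3K4me1 (1.02) and JUND (1.08). Tags per base of peak gave a median log2 ratio of −0.24. Fold enrichment over IgG had a median ratio of 1.01 and was lower under siRAD21 in 49.2% of pairs. For comparison, the median log2 ratio of RPM at kept peaks was −1.02 for RAD21, −1.40 for the cohesin subunit SMC3, −1.10 for MYC and −0.97 for KLF5. It was −0.65 for RFX2, −0.43 for JUND, −0.38 for CTCF, −0.19 for NIPBL, 0.00 for REST and 0.02 for H3K4me1. The nearest values to that of HNF4A were those of RFX2 and JUND.

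The ratio depended on the size of the control peak. In the quintile of pairs with the fewest control tags (11 to 39) the median log2 ratio was −0.03. It was −0.43 in the next quintile, −0.68 and −0.78 in the following ones, and −0.73 in the quintile with 113 to 1149 control tags. Pairs enter only where both peaks passed the caller's threshold, so among small control peaks only those with enough siRAD21 tags are seen. The part of this threshold and of the shared control tags in the trend was not tested.

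The summit of the siRAD21 peak lay a median of 68 bp from that of its control partner. It lay within 50 bp in 39.7% of pairs, within 100 bp in 63.7% (62.1 to 65.2) and within 250 bp in 88.7% (87.6 to 89.7). The shift had no side, with a signed median of −1 bp and 1776 summits to the right, 1808 to the left and 21 on the same base. The median shift was 83 bp in the quintile with the fewest control tags and 50 bp in the quintile with the most. Among the other lists it was 32 bp for RAD21, 44 bp for REST, 81 bp for MYC and 161 bp for H3K4me1, which forms broad regions. A shift of over 500 bp occurred in 176 pairs (4.88%).

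**Figure D2:**
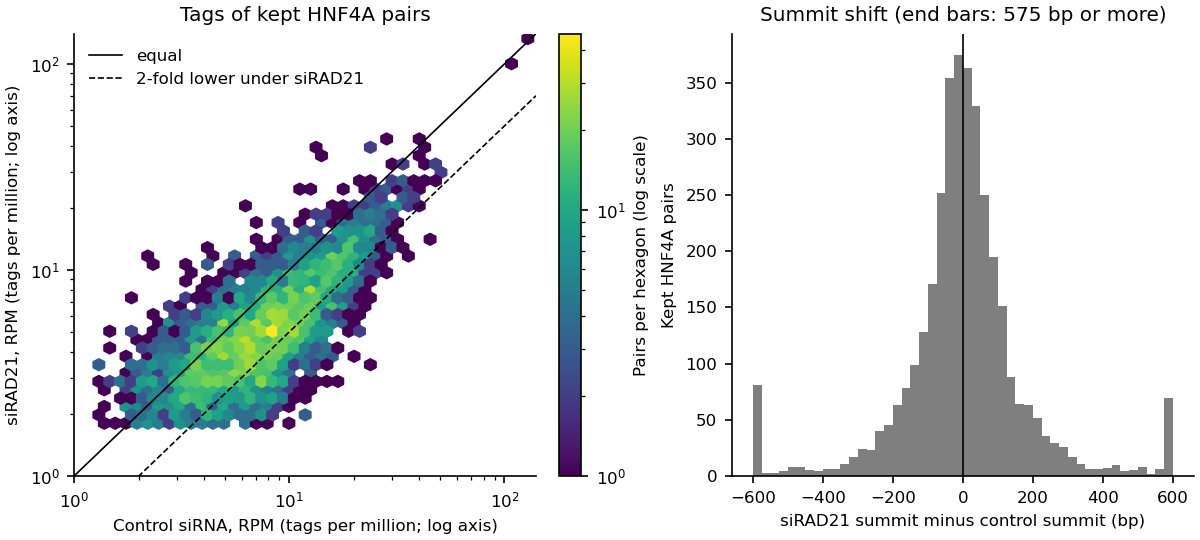
Left, RPM of 3605 one-to-one kept HNF4A pairs, siRAD21 against control siRNA on log axes, with colour giving the pairs per hexagon; most pairs (81.3%) lie below the solid line of equal values and 22.2% at or below the dashed 2-fold line. Right, histogram of the siRAD21 summit minus the control summit in bp, with a signed median of −1 bp; the end bars collect all larger shifts.

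The other targets at HNF4A peaks were read from the lists of both siRNAs. These lists differed in length, with 12319 peaks under siRAD21 and 4678 under control siRNA for JUND, but 1781 and 7791 for KLF5. The ratio of filtered tags, siRAD21 over control, ran from 0.346 (CTCF) to 2.02 (JUND). The part of length and depth in the differences between targets and between siRNAs was not tested. Cohesin was read from RAD21 and SMC3, its loader from NIPBL, and the zinc finger protein at which cohesin halts from CTCF. H3K4me1 is a histone mark of enhancers and promoter flanks. KLF5 is a factor of the intestinal crypt, JUND belongs to AP-1, MYC is a growth regulator, REST a repressor of neuronal genes and RFX2 a factor of ciliary genes. The siRAD21 lists of all of these except H3K4me1 were found more often at new HNF4A peaks than at those that overlapped a control peak.

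Among cohesin and its partners, RAD21 peaks under siRAD21 were found at 22.2% of new HNF4A peaks (20.8 to 23.6) and 11.6% of overlapping ones (10.6 to 12.7). SMC3 was found at 14.1% against 7.94%, NIPBL at 28.6% against 15.2%, and CTCF at 25.6% against 13.9%. Among the factors, JUND was found at 46.7% of new peaks (45.0 to 48.4) and 29.97% of overlapping ones (28.5 to 31.5), and MYC at 31.4% against 16.4%. KLF5 was found at 7.40% against 5.98%, and the intervals of these 2 shares overlap. REST was found at 4.33% against 1.37% and RFX2 at 2.12% against 0.885%. H3K4me1 had the opposite order, at 76.4% of new peaks (74.96 to 77.9) and 92.0% of overlapping ones (91.1 to 92.9). The median width was 1176 bp for new and 1466 bp for overlapping peaks.

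At like strength, within 5 strata of p, the siRAD21 HNF4A peaks that overlapped a siRAD21 peak of another target were new more often for 9 of 10 targets. The difference was 27.6 percentage points for REST (21.8 to 33.3), 24.3 for MYC (21.9 to 26.6), 24.2 for NIPBL (21.8 to 26.6), 22.1 for JUND (19.99 to 24.1) and 21.6 for RAD21 (18.9 to 24.2). It was 14.2 for KLF5 (10.0 to 18.5). For H3K4me1 it was −18.0 (−20.8 to −15.2). The siRAD21 lists of 8 of the 10 targets were called against the same rabbit IgG library as HNF4A. For CTCF and RFX2 the IgG library was from goat, and the differences were 19.7 (17.2 to 22.3) and 26.0 (18.3 to 33.8). Within 5 strata of p by 5 of width, 9 targets again had an interval above 0 and 1 below.

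The control lists of the same targets gave another order. HNF4A peaks that overlapped a control peak of NIPBL were new less often, with a difference of −22.1 percentage points (−24.5 to −19.8), and the differences were −18.1 for JUND, −12.1 for RAD21, −12.1 for SMC3, −5.55 for KLF5 and −31.9 for H3K4me1. MYC, at −1.54 (−3.82 to 0.75), and REST, at −2.63 (−12.0 to 6.72), had intervals that reached 0. CTCF, at 8.02 (5.42 to 10.6), and RFX2, at 7.64 (0.60 to 14.7), lay above 0. The new share was thus higher where a target other than H3K4me1 had a peak in the siRAD21 lists, for 9 of 10 targets, and lower where the target had one in the control lists for 6 of 10.

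From the side of the control HNF4A list, the kept share was higher where another target had a siRAD21 peak. At like strength all 10 differences lay above 0, between 8.45 percentage points for REST (0.97 to 15.9) and 30.8 for MYC (27.9 to 33.7). NIPBL had 29.6, KLF5 24.8, JUND 24.1 and RAD21 15.9. Where the other target had a control peak, the differences within strata of p were smaller and of both signs. RFX2 had 12.6 (5.57 to 19.7), CTCF 6.20 (4.04 to 8.37) and KLF5 4.99 (2.90 to 7.07), while RAD21 had −3.30 (−4.99 to −1.62) and NIPBL −2.89 (−4.49 to −1.29). The intervals of the other 5 targets reached 0. Of the 5 differences clear of 0, those of RAD21 and NIPBL changed sign without strata, at 1.52 (−0.48 to 3.52) and 3.80 (1.91 to 5.68). How strength was matched mattered for other targets too. Both without strata and within strata of fold enrichment 8 of 10 targets had an interval above 0 and none below, with 13.95 and 7.74 for H3K4me1, 7.95 and 7.89 for MYC and 10.8 and 11.3 for KLF5. Within strata of both p and width, 3 intervals lay above 0 and 6 below.

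**Figure D3:**
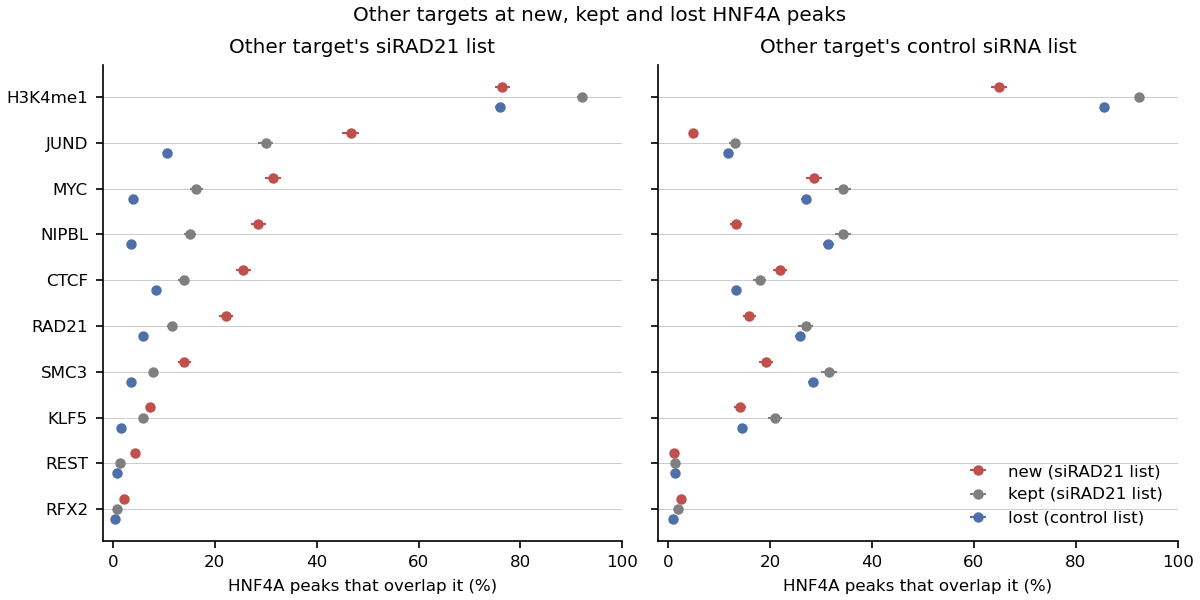
Share of HNF4A peaks, in percent with 95% Clopper-Pearson intervals, that overlap a peak of each of 10 other targets, for new peaks, kept peaks of the siRAD21 list and lost peaks of the control list; the left panel uses the siRAD21 list of the other target and the right panel its control siRNA list. In the siRAD21 lists new peaks have the highest share for 9 targets (46.7% for JUND), and for H3K4me1 the kept peaks do (92.0%).

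**Figure D4:**
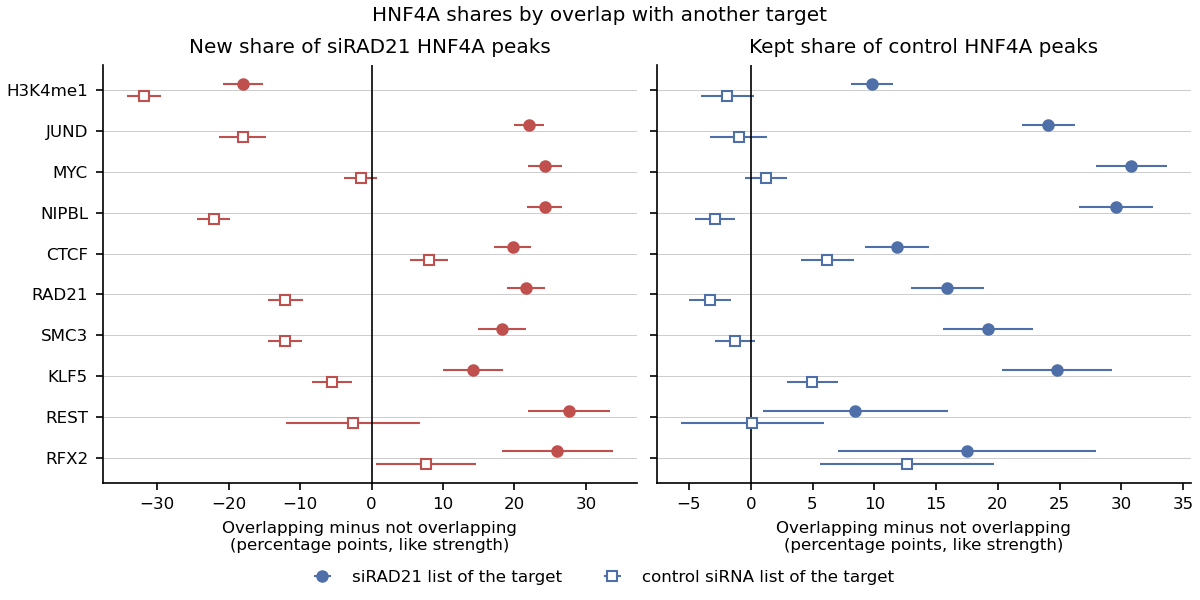
Difference in the new share of siRAD21 HNF4A peaks (left) and in the kept share of control HNF4A peaks (right) between peaks that overlap another target and peaks that do not, in percentage points within 5 strata of p, with 95% intervals; filled circles use the siRAD21 list of the target and open squares its control siRNA list. On the left 9 of 10 circles lie above 0, with H3K4me1 at −18.0, and on the right 10 of 10 circles do.

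Sites that another target shared with HNF4A under control siRNA were followed in both proteins. Of the 1010 kept HNF4A peaks with a control RAD21 peak, RAD21 was found again at 29.0% (26.2 to 31.9), against 20.4% (18.6 to 22.3) of the 1917 lost ones. MYC was found again at 32.1% of kept and 10.96% of lost HNF4A sites, NIPBL at 25.3% and 8.30%, JUND at 62.9% and 32.2%, and KLF5 at 19.1% and 8.66%. Between targets these shares also depend on the length and depth of each siRAD21 list. H3K4me1 was found again at 96.2% of kept sites and still at 86.7% (85.8 to 87.5) of the 6338 lost sites that had it. CTCF was found again at 57.3% (53.5 to 61.1) of kept and 55.2% (52.0 to 58.3) of lost sites, with a difference of 8.37 percentage points (2.75 to 14.0) at like HNF4A strength. The difference at like strength was above 0 for 9 targets, from 7.85 percentage points for H3K4me1 (6.65 to 9.05) to 39.2 for JUND (33.2 to 45.1). For REST, with 50 kept and 97 lost sites, the interval ran from −12.5 to 32.2.

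Where HNF4A and another target were set side by side at each control HNF4A peak, the kept share was highest, for all targets but RFX2, at sites where the other target had a siRAD21 peak without a control peak. For RAD21 it was 74.5% of 192 such sites, against 42.8% of 684 sites with RAD21 under both siRNAs, 32.0% of 2243 with RAD21 under control siRNA alone and 32.0% of 8003 with neither. For NIPBL the 4 shares were 76.6%, 63.1%, 31.4% and 30.2%, and for MYC 71.9%, 65.2%, 32.8% and 29.6%. H3K4me1 split the list by its presence under siRAD21. HNF4A was kept at 37.5% of 8792 peaks with the mark under both siRNAs and 47.0% of 249 with it under siRAD21 alone, against 13.3% of 972 with it under control siRNA alone and 15.3% of 1109 with neither. The shares in this paragraph were not matched for strength. By the siRAD21 H3K4me1 list, the difference in kept share was 23.4 percentage points without strata and 9.82 (8.10 to 11.5) at like strength.

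In the siRAD21 lists, several proteins were found more often at new HNF4A peaks than at those that overlapped a control peak. Counting the 9 targets other than H3K4me1 in the siRAD21 lists, 33.8% of new peaks (32.2 to 35.5) overlapped 3 or more of them, against 16.5% (15.3 to 17.7) of the peaks that overlapped a control peak. Over all siRAD21 HNF4A peaks it was 24.7%. A larger part of the new peaks, 36.1%, overlapped none of the 9, against 52.7% of the peaks that overlapped a control peak. The new share was 38.1% of 3173 peaks with none of the 9, 53.5% of 861 with 2, 69.7% of 498 with 4 and 77.8% of 198 with 6 to 9. At like strength the difference between 3 or more and fewer was 26.9 percentage points (24.7 to 29.2). Counted in the control lists, the new share ran the other way, with 54.0% of 2904 peaks with none and 15.5% of 213 with 6 to 9, and a difference at like strength of −10.9 (−13.2 to −8.55).

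The same count was made for the other lists, to see whether this went for HNF4A alone. The difference in new share between peaks with 3 or more other targets and fewer, in the siRAD21 lists, was 27.1 for REST (23.8 to 30.4) and 26.4 for RAD21 (24.8 to 28.0), close to that of HNF4A. It was 15.2 for SMC3, 13.8 for CTCF, 6.13 for JUND and 4.50 for NIPBL. It was −2.18 for MYC (−4.48 to 0.12), −8.31 for KLF5 (−13.1 to −3.49) and −20.8 for RFX2 (−27.6 to −14.0). The interval of HNF4A overlapped those of REST and RAD21 and lay above those of the other 7.

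H3K4me1 and the number of other targets divided the siRAD21 HNF4A peaks together. With H3K4me1, 26.3% of 2385 peaks with no other target were new (24.6 to 28.1), 44.4% of 1960 with 1 or 2, and 64.5% of 1649 with 3 or more (62.1 to 66.8). Without H3K4me1 the new share hardly moved, at 73.7% of 788 peaks (70.5 to 76.8), 69.0% of 200 and 71.0% of 100 (61.1 to 79.6). The peaks with neither were also the weakest, with a median −10 × log10 p of 58.9 against 77.1 for those with H3K4me1 and no other target.

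The tags of HNF4A at kept sites were also read by the state of the other targets. Each pair was set against pairs of like control tags in 10 strata. Pairs with a RAD21 peak under control siRNA alone had a median log2 ratio of −0.67 (n = 695), which is 0.04 below pairs of like tags. Pairs with RAD21 under both siRNAs had −0.49 (n = 285), and pairs with neither −0.53 (n = 2486). The widest departure among states with over 100 pairs was for CTCF. The 118 pairs with a CTCF peak under siRAD21 alone had a median log2 ratio of −0.14, 0.47 above pairs of like tags, while the 281 pairs with CTCF under control siRNA alone had −0.64 and did not depart from pairs of like tags (−0.01). Other states that departed by over 0.20 were NIPBL under siRAD21 alone (0.26 above, n = 227), KLF5 under siRAD21 alone (0.23 above, n = 73), and H3K4me1 under siRAD21 alone (0.28 above, n = 111) or under neither siRNA (0.27 above, n = 170). REST and RFX2, with 14 to 63 pairs in each state other than neither, departed by up to 0.57. These are medians with no test.

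Within shared sites the summits of HNF4A and the other target lay closest for NIPBL, KLF5 and JUND. In the siRAD21 lists the median summit distance at new peaks was 187 bp for NIPBL, 179 bp for KLF5, 188 bp for JUND, 226 bp for RAD21 and 315 bp for CTCF. At the siRAD21 peaks that overlapped a control peak it was 168, 160, 190, 289 and 463 bp for the same targets. In the control lists the median distance at kept and lost HNF4A peaks was 118 and 108 bp for NIPBL, 130 and 113 bp for KLF5, and 453 and 414 bp for CTCF. H3K4me1 summits lay farther off, at 717 bp from new and 649 bp from overlapping siRAD21 peaks.

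The chromosomes kept HNF4A peaks to different extents. The kept share was highest on chromosome 19, at 45.3% of 360 control peaks (40.1 to 50.6), and lowest on the X chromosome, at 23.6% of 356 (19.3 to 28.4). Chromosome 17 also had an interval above the share of the whole list, and chromosomes 3 and 8 had intervals below it. Standardised over 5 strata of p the range was 26.2% (X) to 44.9% (19). Chromosome 19 also had the highest new share, 56.8% of 380 siRAD21 peaks (51.7 to 61.9), and was the one chromosome with more siRAD21 than control peaks, a ratio of 1.06 against a median of 0.617 over the 23 chromosomes. Chromosome 6 had the lowest new share, 41.7%. The median log2 ratio of RPM at kept pairs lay between −0.70 (chromosome 21) and −0.46 (chromosome 19).

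**Figure D5:**
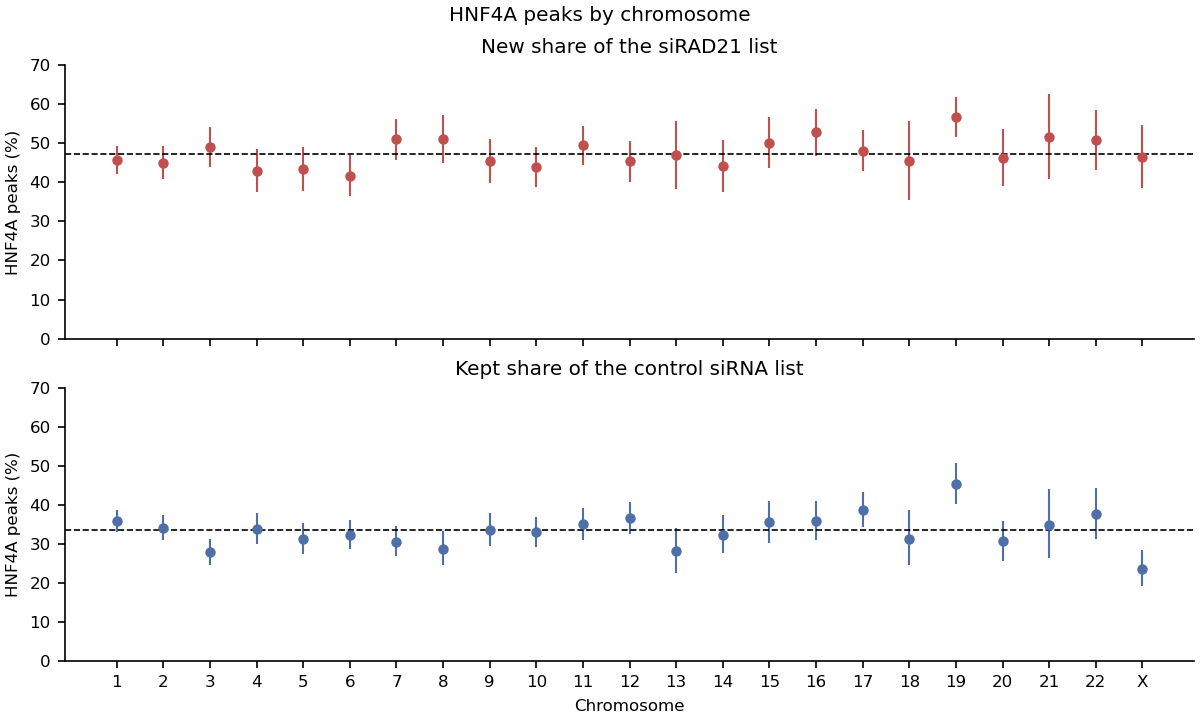
New share of the siRAD21 HNF4A list (top) and kept share of the control siRNA HNF4A list (bottom) by chromosome, in percent with 95% Clopper-Pearson intervals; the dashed lines are the shares of the whole lists, 47.3% and 33.4%. Chromosome 19 is the highest in both panels and the X chromosome the lowest in the bottom one.

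Lost and new peaks were mostly far from any HNF4A peak of the other list. The median gap was 51767 bp for new and 77391 bp for lost peaks, and 30.3% of new and 43.2% of lost peaks had a gap of over 100000 bp. Within their own list, 14.2% of new peaks (13.0 to 15.4) and 17.1% of the overlapping siRAD21 peaks (15.9 to 18.3) had another HNF4A summit within 10000 bp. In the control list these shares were 23.5% for kept and 22.5% for lost peaks. Peaks joined at gaps of up to 10000 bp formed 11 stretches of 4 or more in the siRAD21 list and 45 in the control list, of which the longest held 4 and 6 peaks. Gaps, shares of close neighbours and stretches all depend on the length of the list, 7082 peaks under siRAD21 and 11122 under control siRNA. The part of list length in them was not tested. At like strength, peaks in stretches of 2 or more differed from lone peaks by −2.90 percentage points in the new share (−5.79 to −0.01) and by −1.33 in the kept share (−3.10 to 0.44).

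Single regions (hg18) show these classes. The strongest new peak, at chr2:159022075-159023723, held 78 tags (15.6 RPM) at a fold enrichment of 47.4, and NIPBL, CTCF and H3K4me1 peaks were found there under siRAD21 and none under control siRNA. The new peak at chr3:75789894-75791254 held 84 tags and had CTCF under both siRNAs. At chr16:87081392-87083902 a new peak of 105 tags lay with NIPBL, H3K4me1, JUND and MYC under siRAD21 and with H3K4me1 and MYC under control siRNA. The new peaks at chr22:20350097-20351247 and chr13:113065065-113066296 held 79 and 54 tags and had H3K4me1 under both siRNAs. The nearest control HNF4A peak was 40291 to 218448 bp from these 5.

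The strongest kept peak, at chr10:101342408-101346591, held 302 control tags and was overlapped by 2 siRAD21 peaks, of 100 and 50 tags, with summits 35 bp to the left and 2031 bp to the right of the control summit. The other 4 of the strongest kept peaks had a single partner. At chr5:133381257-133384499 the siRAD21 peak held 31.0 RPM and the control peak 47.9. At chr17:16139966-16143444 the values were 13.0 and 32.8, the lowest ratio of the 4 (log2 ratio −1.34), and RAD21, SMC3, NIPBL, CTCF and MYC peaks were found there under control siRNA alone. At chr7:12806316-12809547 they were 36.0 and 42.3, and at chr1:226983715-226987523 they were 29.0 and 50.3. In all 4 the siRAD21 value was the lower, and the summits lay 5 to 75 bp apart.

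The strongest lost peak, at chr2:157616965-157618417, held 94 tags (10.5 RPM) in the control library, with RAD21 and H3K4me1 under control siRNA and no target under siRAD21. The next, at chr22:49268812-49271771, held 157 tags and had CTCF and H3K4me1 under both siRNAs. Those at chr17:43397735-43400936, chr14:90662642-90664633 and chr4:40065981-40067395 held 180, 130 and 83 tags. At each of these 3 H3K4me1 was found under both siRNAs, SMC3, NIPBL and MYC were found under control siRNA, and these 3 proteins had no siRAD21 peak there. All 5 had more scaled tags than the median siRAD21 peak.

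Regions with many targets were found in every class. The new peak at chr2:11190266-11190971 held 10 tags and overlapped 9 other targets under siRAD21 and 7 under control siRNA. The kept peak at chr19:11406480-11408597 held 10.2 RPM under siRAD21 and 15.9 under control siRNA, with 9 and 8 other targets. The lost peak at chrX:53117205-53119011 held 43 control tags and overlapped the same number of other targets, 7, under both siRNAs.

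The pairs at the ends of the ratio were chosen for that ratio and are given as a description. The highest ratio among pairs with at least 50 control tags was at chr10:135041340-135042334, with 21.0 RPM under siRAD21 and 6.03 under control siRNA (log2 ratio 1.80). The next, at chr14:38804166-38806165, had 40.2 and 13.2 (1.61). There RAD21, SMC3, NIPBL, JUND and MYC peaks were found under siRAD21 alone. The third, at chr2:201535299-201538128, had 35.6 and 14.6 (1.28). The lowest ratio was at chr11:65311785-65318322, with 3.404 and 22.7 RPM (−2.74), where the siRAD21 peak was 1473 bp wide, the control peak 6538 bp, and their summits lay 3378 bp apart. The next were chr20:55705451-55707837, with 2.002 and 12.1 (−2.59), and chr13:31058515-31061746, with 2.002 and 12.0 (−2.58).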

How the data were processed

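ChIP-seq peak lists of HNF4A in GP5d cells were compared between siRAD21 and control siRNA, with 1 library per group. Per the submitters' processing notes the tools were CASAVA 1.4, BWA and MACS 1.4, on hg18. Per the file headers, MACS 1.4.0rc2 called peaks in each library at a p cutoff of 1e-05 against IgG of matching siRNA and host, with 1 tag kept per position. The number of peaks called and their width depend on the depth of both libraries.

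Per the file headers, the deposited values per peak were the tag count, the score −10 × log10 p, the fold enrichment (a ratio to IgG) and the FDR in percent. The lists have 10 columns under 9 names. The 10th was taken as the FDR, since its number of peaks under 5% equalled the labels in all 22 lists.

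From these, overlap of at least 1 bp, shares with Clopper-Pearson intervals, RPM (tags scaled to 1000000 filtered tags) and ratios over one-to-one pairs were computed (Python 3.11.15, pandas 2.3.3, numpy 2.4.6, scipy 1.17.1, matplotlib 3.10.9). Differences at like strength are Mantel-Haenszel risk differences over 5 strata of p of the HNF4A list. The steps were tested on simulated lists. Intervals and upper limits cover counting error only.

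Regions were named by rank: per class the 5 strongest by p (new and lost ones over 1000 bp from the other list) and the 2 with the most other targets, and the 3 highest and 3 lowest ratios among pairs with at least 50 control tags. Peaks on chromosome 8 were passed over. Among the 2 with the most targets, 1 per class is described. A gene list was not used, for want of an hg18 annotation here. The members and lists were chosen with earlier results of these data known. Alternatives covered the overlap rule, thresholds, list length, scaling and strata.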

Additional observations from a re-analysis of the deposited data

How the results depend on the processing

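No paired analysis was possible because each siRNA had 1 HNF4A library. The kept share of 33.4% was 29.4% by summits within 250 bp, 29.8% where the overlap had to cover 50% of both peaks, 30.5% for −10 × log10 p of at least 100, 45.6% at an FDR under 5% and 45.6% for equal numbers of the strongest peaks. The new share of 47.3% was 53.8%, 53.2% and 28.3% under the first 3 of these and 54.0% for equal numbers. The cuts on p, on FDR and to equal numbers were made in both lists before the overlap. At −10 × log10 p of at least 100, 5273 control peaks were set against 2249 siRAD21 peaks. A strong control peak whose only siRAD21 partner was weaker thus counted as lost there. The median width ratio of 0.821 was 0.845 for pairs with −10 × log10 p of at least 100, the median summit shift of 68 bp was 52 bp there and 58 bp at an FDR under 5%, and the median log2 ratio of −0.56 was −0.66 by total tags, −0.24 per base and −0.53 for the stronger pairs. The median difference in kept share by control list of another target was −0.43 percentage points, but 5.87 without strata and 5.91 with strata of fold enrichment. The difference changed sign for RAD21 (−3.30, against 1.52 and 0.25) and NIPBL (−2.89, against 3.80 and 2.78). For RAD21 the intervals of both alternatives reached 0 (−0.48 to 3.52 and −1.57 to 2.07). The median difference in new share by siRAD21 list, 21.8, was 18.8 without strata and 25.6 at an FDR under 5%, and 9 targets lay above 0 and 1 below under it and under 5 alternatives chosen after the data were seen. The causes of these moves were not tested. The siRAD21 HNF4A library and its IgG library held fewer tags than the control ones, and what this limits was not tested.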

Other observations

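Fold enrichment and tags ordered the HNF4A lists differently. New peaks had a higher median fold enrichment than lost peaks, 10.2 against 8.78, although they had a lower median −10 × log10 p, 63.0 against 77.3. They also had fewer tags, 15 against 29, or 3.00 against 3.24 RPM. By FDR the siRAD21 list was the more select, with 65.2% of its peaks (64.1 to 66.3) under 5%, against 48.0% of the control list (47.1 to 49.0). In number these were 4616 peaks under siRAD21 and 5343 under control siRNA, a narrower gap than that of the whole lists. The FDR compares each ChIP library with its own IgG library, and the IgG libraries differed in depth by a ratio of 0.460.

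Peaks of the siRAD21 list held 3.57% of the filtered tags of their library, and peaks of the control list 6.36%, over 10249833 and 18206047 bases. New peaks accounted for 1.22% of the siRAD21 tags and lost peaks for 2.93% of the control tags.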
